A study of Homo sapiens with 4 samples.

Results

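The secreted and membrane-bound metalloproteases of the extracellular matrix and their inhibitors were examined in CD31+ cells with or without HAND1 overexpression. The genes were taken from the expression table by name alone, as matrix metalloproteinases (MMP followed by a number), ADAMTS proteases (ADAMTS followed by a number) and tissue inhibitors of metalloproteinases (TIMP followed by a digit). This gave 45 genes of the 58229 in the table, each with a single row, of which 22 were MMPs, 19 ADAMTS proteases and 4 TIMPs. The cells came from the human embryonic stem cell line H1, which is long established and was differentiated toward blood with activin A and BMP4 and then with VEGF and bFGF. CD31+ cells were collected at day 8. Control cells (2 libraries) were H1 derived, and HAND1_OE cells (2 libraries) came from H1 after overexpression of the transcription factor HAND1. The labels name neither the vector nor the number of clones. They do not say whether the 2 libraries of a group came from separate cultures, and the study's general statement that its analyses were repeated independently does not name these libraries, so the p-values measure the spread between libraries, which may be technical.

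MMPs and ADAMTS proteases use a zinc ion to cut matrix proteins and are made as inactive zymogens that must lose a propeptide. Membrane-type MMPs stay on the cell surface, where MMP14 activates the zymogen of MMP2 with TIMP2 as a bridge. TIMPs block the active site of the mature enzymes, and endothelial cells use this balance when they invade matrix or leave it. Only RNA was measured here, so neither activation nor activity is known.

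Values were FPKM, fragments scaled to transcript length and to the depth of the library, and the counts behind them are unknown. FPKM summed to between 536284 and 606609 per library, and 13989 to 14542 genes reached 1 FPKM. HAND1 was at 12.1 and 14.3 FPKM in Control cells and 520 and 517 in HAND1_OE cells. PECAM1, the gene of CD31, was at 95.5 and 141 FPKM in Control, against 92.0 and 160 in HAND1_OE. All 10 endothelial markers examined passed the filter on low values in these libraries. All 7 erythroid markers examined passed it too, so passing the filter is no check of the sort.

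Of the 45 genes, 25 reached 1 FPKM in at least 2 libraries and were tested. In HAND1_OE 4 genes were called higher (MMP28, ADAMTS4, ADAMTS2 and MMP14) at a limma adjusted p under 0.05, where 2.04% of all 14622 genes tested were called higher. With limma 0 genes were called lower, where 2.11% of all genes were, and an unadjusted p under 0.05 was reached by 11 genes on the higher and 3 on the lower side. Over all genes tested, 6.82% reached it on the higher and 10.6% on the lower side, so the 3 of 25 lay close to the share of all genes. The HAND1_OE libraries were both higher than either Control library for 15 of the 25 tested genes and both lower for 4, against 16.2% and 30.1% of all genes tested. The median difference of log2(FPKM + 1) between HAND1_OE and Control was 0.46 over the 25 genes and -0.078 over all genes tested. ADAMTS14, ADAMTS15 and ADAMTS18 passed the filter through their HAND1_OE libraries alone and had to lie higher there. With every gene above 0 in any library tested, limma called 0 of all 29860 genes in either direction, the 45 included. There an unadjusted p under 0.05 was reached by 13 of the 40 tested genes of these families on the higher and 4 on the lower side, against 4.88% and 7.88% of all genes.

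**Figure D1:**
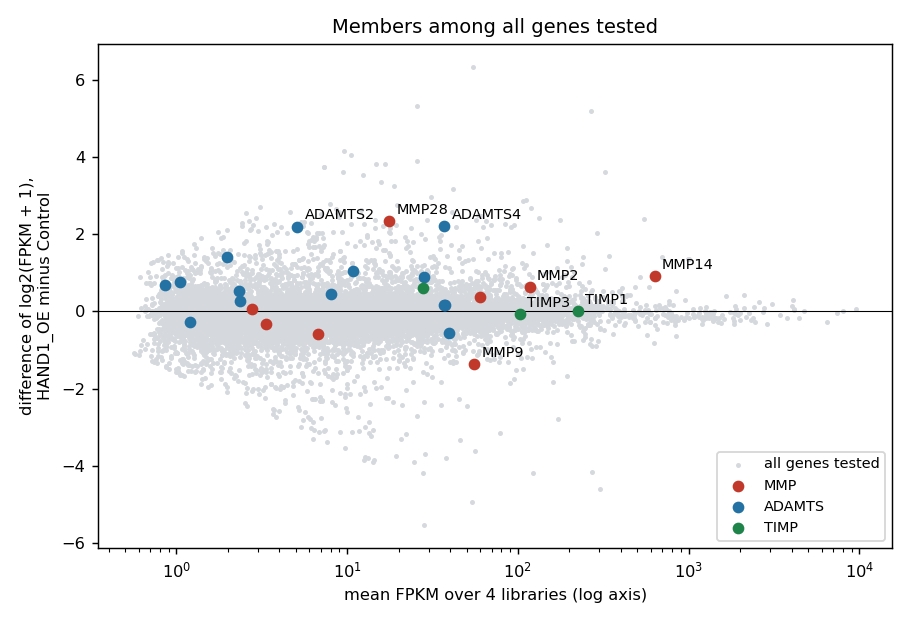
Mean FPKM over the 4 libraries (horizontal, log axis) against the difference of log2(FPKM + 1), HAND1_OE minus Control (vertical), for all 14622 genes tested (grey) and the 25 tested MMP, ADAMTS and TIMP genes (colored). MMP28, ADAMTS2 and ADAMTS4 lie above 2, MMP14 lies at 0.91 among the most abundant genes, and MMP9 is the lowest colored point at -1.36.

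The membrane-type MMPs were led by MMP14 (ENSG00000157227.12, GRCh38 chromosome 14, 22836557 to 22849027), the surface collagenase that activates MMP2. It was at 435 and 442 FPKM in Control cells and 792 and 861 in HAND1_OE cells. It was the most abundant of the 45 genes in each library, and by FPKM it moved from rank 170 and 147 among all genes in Control to rank 105 and 84 in HAND1_OE. The means were 438 ± 5.01 and 827 ± 48.8 FPKM (SD, n = 2), and the difference of log2(FPKM + 1) was 0.91 (standard error 0.16, limma adjusted p = 0.0444). The groups lay well apart, but the call was close to the threshold and did not survive the loss of a library. The limma adjusted p was 0.127 without Control replicate 1, 0.135 without Control replicate 2, 0.164 without HAND1_OE replicate 1 and 0.230 without HAND1_OE replicate 2, while the difference stayed between 0.85 and 0.97. These are bulk values, in which more cells of a type and more RNA per cell cannot be told apart.

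The start of MMP14 is shown because it is the most abundant gene that rose. The 250 bases before its RefSeq start (GRCh38.p14, chr14:22836335-22836584, plus strand) are given 5′ to 3′, with the E-box CANNTG, the core that basic helix-loop-helix factors such as HAND1 with their partners can bind, in capitals. The motif was searched on both strands and reads the same on each.
MMP14: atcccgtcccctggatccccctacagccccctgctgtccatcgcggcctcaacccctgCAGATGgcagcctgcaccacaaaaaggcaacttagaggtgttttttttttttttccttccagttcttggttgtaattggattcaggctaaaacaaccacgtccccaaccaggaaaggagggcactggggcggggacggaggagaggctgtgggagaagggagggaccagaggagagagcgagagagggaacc
The only match lay 192 bases before the start. An E-box was found in 62.2% of 27305 promoters of this length, so most promoters held one. The AP-1 motif TGANTCA, known from several MMP promoters, was not found in this window and was found in 6.60% of all promoters. Of the 45 genes, 26 had an entry, of which 14 held an E-box and 4 an AP-1 motif. Those 4 were ADAMTS12, MMP7, MMP10 and MMP20, and in ADAMTS12 and MMP7 the AP-1 and E-box matches overlapped. ADAMTS4 and MMP28 had no entry.

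No other membrane-type MMP was called, and some were scarce. MMP15, a membrane-type enzyme close to MMP14, was at 47.7 and 56.8 FPKM in Control, against 63.8 and 70.9 in HAND1_OE (difference 0.36, 95% interval -0.035 to 0.76, limma adjusted p = 0.332). MMP16, a further transmembrane type, was at 3.98 and 3.65 FPKM in Control cells and 2.63 and 3.10 in HAND1_OE cells (difference -0.32, adjusted p = 0.471). MMP25, which is anchored by a lipid and is known from neutrophils, was at 2.54 and 2.86 FPKM in Control, against 3.10 and 2.59 in HAND1_OE. In MMP25 the groups overlapped (difference 0.054, 95% interval -0.42 to 0.53), and 35.2% of its exon bases are shared with the antisense gene MMP25-AS1. MMP17, also lipid-anchored, was not tested and was at 0.954 and 1.55 FPKM in Control cells and 0.588 and 0.418 in HAND1_OE cells. MMP24 stayed under 1 FPKM in each library. Of the 6 membrane-type genes MMP14 alone was called, and in HAND1_OE replicate 1 it was at 792 FPKM where MMP15, the next, was at 63.8 FPKM.

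The gelatinases, which cut denatured collagen and basement membrane collagen, lay on opposite sides of Control. MMP2 (chromosome 16, 55389700 to 55506691), the gelatinase of stromal and endothelial cells, was at 104 and 80.5 FPKM in Control, against 132 and 154 in HAND1_OE. MMP9 (chromosome 20, 46008908 to 46016561), the gelatinase of neutrophils and macrophages, was at 99.3 and 61.1 FPKM in Control cells and 39.3 and 22.6 in HAND1_OE cells. In neither gene did the groups overlap. The difference was 0.63 for MMP2 (standard error 0.19, limma adjusted p = 0.161) and -1.36 for MMP9 (standard error 0.34, limma adjusted p = 0.105), so neither was called. The ratio of MMP2 to MMP9 was 1.05 and 1.32 in Control and 3.35 and 6.80 in HAND1_OE. Without HAND1_OE replicate 1, which had the higher MMP9 value of the group, MMP9 was called lower (difference -1.74, limma adjusted p = 0.0251). The exon bases of MMP9 are shared to 18.4% with the antisense gene SLC12A5-AS1, and those of MMP2 to 3.53%.

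The blood cell markers that were tested fell together with the lower MMP9 values. All 5 of the 8 myeloid markers that passed the filter were called lower, and the summed level of the 8 was 138 and 116 FPKM in Control and 17.5 and 11.996 FPKM in HAND1_OE. In the same libraries MPO was near 0 in both groups, at 0.0769 and 0 FPKM in Control and 0.0130 and 0 FPKM in HAND1_OE. CD14 was not tested and lay higher in HAND1_OE, at 0.228 and 0.223 FPKM in Control and 0.246 and 0.676 in HAND1_OE. CSF1R was not tested either and lay lower, at 1.71 and 0.853 FPKM in Control and 0.388 and 0.292 in HAND1_OE. The 7 erythroid markers, also all called lower, summed to 394 and 645 FPKM in Control and to 21.98 and 18.9 FPKM in HAND1_OE. Of 5 markers listed as shared by blood cells, the 3 that were tested (RUNX1, SPN and CORO1A) were called lower. The 5 summed to 40.8 and 61.4 FPKM in Control and to 5.82 and 5.33 FPKM in HAND1_OE, with PTPRC at or under 0.0227 FPKM in each library. CD48 was at or under 0.292 FPKM, and its groups overlapped. The part of these blood cell markers in the MMP9 values was not tested.

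MMP28 (epilysin, ENSG00000271447.5, chromosome 17, 35756249 to 35795707), a secreted MMP best known from skin and testis, had the largest difference of the tested genes. It was at 6.17 and 4.20 FPKM in Control, against 28.5 and 31.9 in HAND1_OE. The means were 5.18 ± 1.39 and 30.2 ± 2.38 FPKM (SD, n = 2), a ratio of 5.82. The difference of log2(FPKM + 1) was 2.35 (standard error 0.21, limma adjusted p = 0.00798), and the call held without each of the 4 libraries in turn. MMP11 (stromelysin-3), which furin activates inside the cell, lay lower in HAND1_OE, at 8.74 and 7.80 FPKM in Control cells and 5.06 and 5.29 in HAND1_OE cells. Its groups did not overlap, but the difference of -0.59 was not called (standard error 0.16, limma adjusted p = 0.143). Of its exon bases 4.21% are shared with CHCHD10 on the other strand.

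The collagenases, matrilysins and classical stromelysins were at or near 0. Of the MMP genes, 9 lie in a cluster of 435 kb on chromosome 11 (102520508 to 102955734), which holds MMP7, MMP20, MMP27, MMP8, MMP10, MMP1, MMP3, MMP12 and MMP13. None of the 9 passed the filter in these libraries, and MMP3, MMP7, MMP20 and MMP27 were listed at 0 in all 4 libraries. MMP1, the interstitial collagenase, was the highest of them, at 0.214 and 0.328 FPKM in Control, against 0.498 and 1.01 in HAND1_OE. The highest value of any other gene of the cluster was 0.155 FPKM. Outside the cluster MMP26 was listed at 0 throughout. MMP21, a gene of left-right patterning, was at 0.0276 and 0 FPKM in Control cells and 0.350 and 0.214 in HAND1_OE cells, and MMP19 was at 0.255 and 0.249 FPKM in Control, against 0.0955 and 0.0922 in HAND1_OE. A value of 0 in such a table can be a failed estimate and does not show that a gene is silent.

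**Figure D2:**
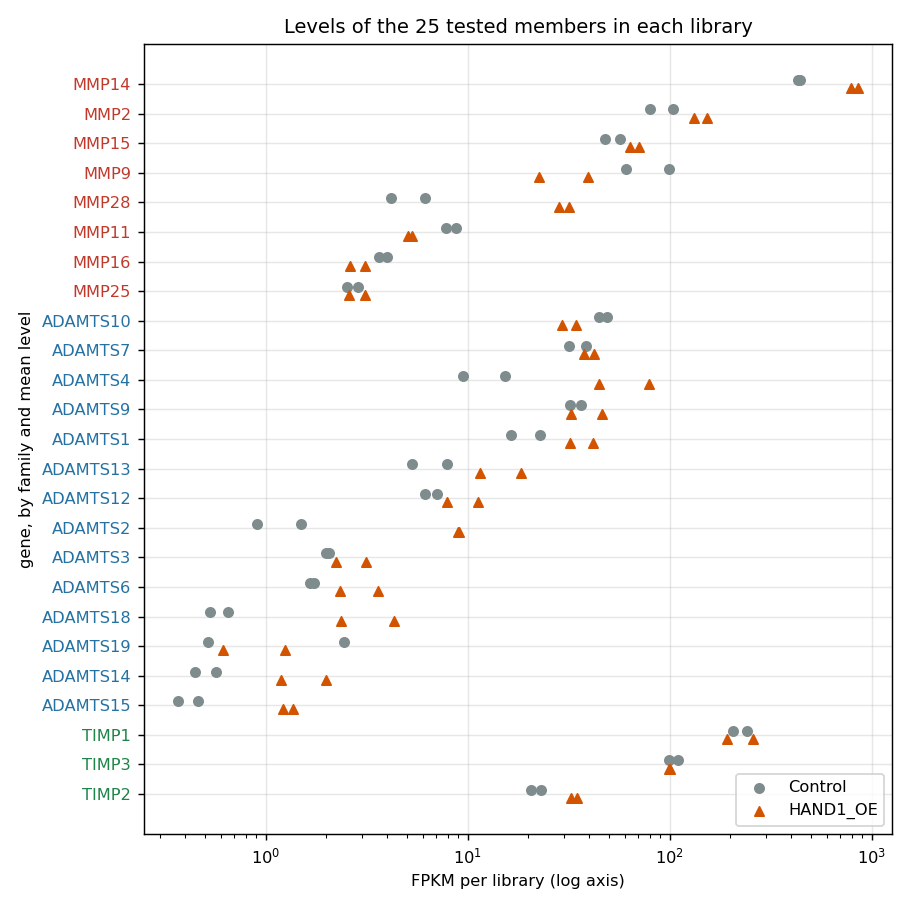
FPKM of the 25 tested genes (horizontal, log axis) in each of the 2 Control (circles) and 2 HAND1_OE (triangles) libraries, ordered by family and mean level. MMP14 and TIMP1 are the highest of their families, and the triangles of MMP28, ADAMTS4 and ADAMTS2 lie far to the right of the circles.

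The ADAMTS proteases carry thrombospondin repeats and act on fewer substrates than MMPs. Those that trim procollagen before fibrils form were led by ADAMTS2 (ENSG00000087116.14, chromosome 5, 179110851 to 179345430), the main procollagen N-proteinase. It was at 1.497 and 0.903 FPKM in Control cells and 8.92 and 9.12 in HAND1_OE cells. The means were 1.20 ± 0.42 and 9.02 ± 0.135 FPKM (SD, n = 2), a difference of 2.20 (standard error 0.21, limma adjusted p = 0.009). The call held without each of the 4 libraries in turn. With 1 FPKM required in every library ADAMTS2 was not tested, since Control replicate 2 lay just under that level. ADAMTS14, a close relative with the same activity, was at 0.570 and 0.446 FPKM in Control, against 1.99 and 1.20 in HAND1_OE (difference 0.77, limma adjusted p = 0.191). ADAMTS3, which also helps to activate VEGF-C, was at 2.05 and 1.99 FPKM in Control cells and 2.22 and 3.13 in HAND1_OE cells (difference 0.27, limma adjusted p = 0.61). In all 3 genes the HAND1_OE libraries lay above the Control libraries, as in 16.2% of all genes tested. ADAMTS2 alone was called, where 2.04% of all genes tested were called higher. ADAMTS14 passed the filter through its HAND1_OE libraries alone, so it had to lie higher there.

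The start of ADAMTS2 is shown as that of the other called gene with an entry. The 250 bases before its RefSeq start (GRCh38.p14, chr5:179345462-179345711, minus strand, 5′ to 3′) held neither motif, so no base is in capitals.
ADAMTS2: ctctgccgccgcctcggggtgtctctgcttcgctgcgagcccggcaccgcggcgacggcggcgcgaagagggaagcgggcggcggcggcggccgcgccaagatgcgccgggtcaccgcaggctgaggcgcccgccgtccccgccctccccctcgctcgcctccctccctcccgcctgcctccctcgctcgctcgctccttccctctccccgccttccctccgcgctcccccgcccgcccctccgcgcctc
G and C made up 80% of these bases and 56.8% of those of MMP14.

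Among the hyalectanases, which cut versican and aggrecan, ADAMTS4 (ENSG00000158859.9, chromosome 1, 161184308 to 161199056) rose. It was at 9.44 and 15.3 FPKM in Control, against 44.7 and 79.0 in HAND1_OE. The groups lay apart although the libraries within each differed widely. The means were 12.4 ± 4.17 and 61.8 ± 24.2 FPKM (SD, n = 2), and the difference was 2.21 (standard error 0.34, limma adjusted p = 0.0312). Without Control replicate 1 the difference was 1.89 and was not called (limma adjusted p = 0.066). ADAMTS4 made up 5.61% and 8.93% of the summed ADAMTS FPKM in Control and 18.4% and 28.95% in HAND1_OE.

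The other hyalectanases were not called. ADAMTS1, which also restrains VEGF, was at 16.3 and 22.8 FPKM in Control cells and 32.3 and 42.0 in HAND1_OE cells, without overlap (difference 0.90, standard error 0.22, limma adjusted p = 0.103). ADAMTS9, an enzyme that endothelial cells make, was at 36.5 and 32.1 FPKM in Control, against 46.5 and 32.6 in HAND1_OE, and the groups overlapped (difference 0.18, 95% interval -0.34 to 0.70). ADAMTS15 was at 0.368 and 0.464 FPKM in Control cells and 1.36 and 1.21 in HAND1_OE cells (difference 0.69, limma adjusted p = 0.174). The HAND1_OE libraries of ADAMTS1 thus lay higher, and those of ADAMTS9 did not separate. Those of ADAMTS15 had to lie higher, since it passed the filter through them alone. ADAMTS5, the neighbor of ADAMTS1 on chromosome 21, stayed at or under 0.243 FPKM, and ADAMTS8 and ADAMTS20 stayed at or under 0.121 and 0.11 FPKM, so none of them was tested. Versican (VCAN), their main substrate in vessels, was at 10.5 and 26.6 FPKM in Control, against 14.4 and 39.6 in HAND1_OE, with overlap.

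ADAMTS13, which cuts von Willebrand factor, was at 7.94 and 5.31 FPKM in Control cells and 18.4 and 11.5 in HAND1_OE cells. The groups did not overlap, but the difference of 1.05 was not called (standard error 0.28, limma adjusted p = 0.129). Without HAND1_OE replicate 2 it was called (difference 1.37, limma adjusted p = 0.0413). Its substrate VWF was at 31.3 and 14.6 FPKM in Control, against 107 and 95.4 in HAND1_OE and was called higher (difference 2.18, limma adjusted p = 0.0338).

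The remaining ADAMTS genes divided as follows. ADAMTS10, which binds fibrillin microfibrils, was at 44.9 and 49.2 FPKM in Control cells and 29.3 and 34.3 in HAND1_OE cells (difference -0.55, standard error 0.16, limma adjusted p = 0.146). It was the only tested ADAMTS gene whose HAND1_OE libraries both lay below both Control libraries. ADAMTS6, its closest relative, was at 1.74 and 1.66 FPKM in Control, against 3.62 and 2.32 in HAND1_OE (difference 0.54, limma adjusted p = 0.322). ADAMTS7 and ADAMTS12, which cut cartilage oligomeric matrix protein, had differences of 0.18 (95% interval -0.23 to 0.59) and 0.46 (95% interval -0.069 to 0.99). ADAMTS7 was among the more abundant, at 31.9 to 42.3 FPKM over the 4 libraries, and ADAMTS12 was at 6.14 to 11.2 FPKM. ADAMTS18 passed the filter through its HAND1_OE libraries alone and had to lie higher there. It was at 0.528 and 0.650 FPKM in Control cells and 2.37 and 4.33 in HAND1_OE cells (difference 1.42, standard error 0.28, limma adjusted p = 0.0578). It lay just outside the threshold and was called without HAND1_OE replicate 1 (limma adjusted p = 0.0234) and after quantile normalization (0.0432). ADAMTS19 had the widest interval of the tested genes, at 0.519 and 2.43 FPKM in Control, against 0.616 and 1.25 in HAND1_OE (difference -0.26, 95% interval -1.33 to 0.81). ADAMTS17, at 0.134 and 0.149 FPKM in Control cells and 0.560 and 1.595 in HAND1_OE cells, was not tested, and ADAMTS16 stayed at or under 0.118 FPKM.

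**Figure D3:**
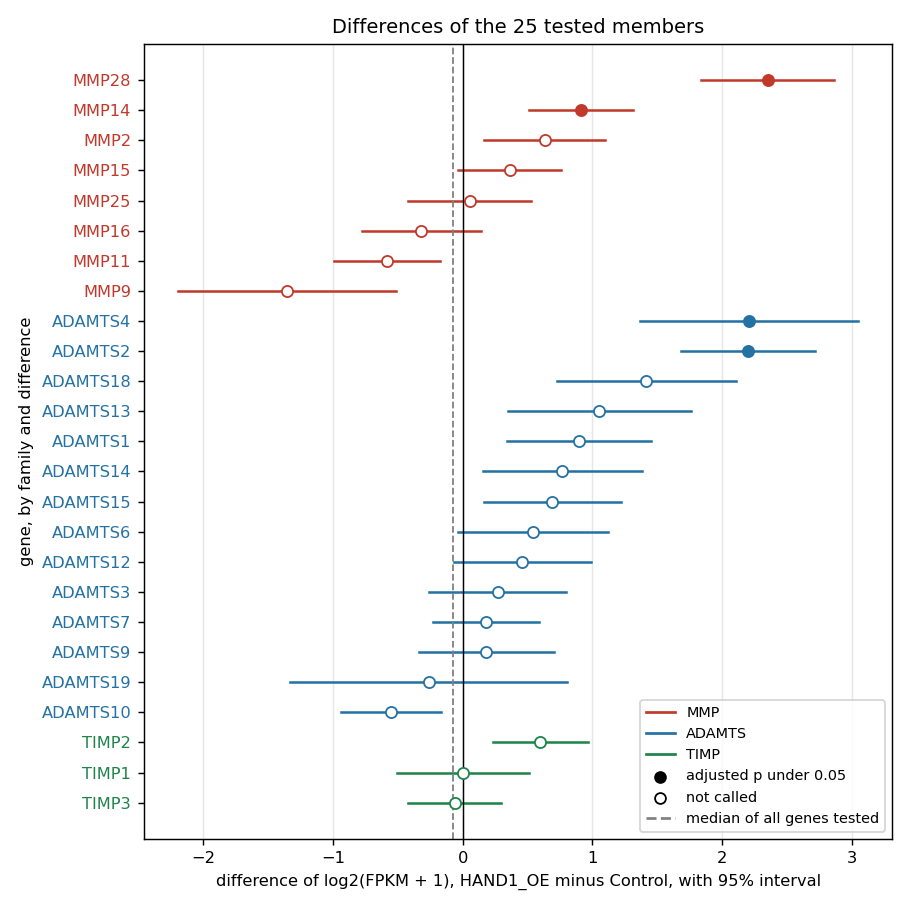
Difference of log2(FPKM + 1), HAND1_OE minus Control, of the 25 tested genes with its 95% interval from limma, by family. Filled points are the 4 genes with a limma adjusted p under 0.05, and the dashed line is the median of all genes tested at -0.078.

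Of the inhibitors none was called without a replicate block. TIMP1 (chromosome X, 47582313 to 47586789), which binds the MMP9 zymogen, was the most abundant, at 243 and 205 FPKM in Control, against 260 and 192 in HAND1_OE. The groups overlapped, and the difference was 0.0029 (95% interval -0.51 to 0.51, limma adjusted p = 0.996). TIMP3 (chromosome 22, 32801701 to 32863043), which binds to matrix and also blocks ADAMTS4, was at 99.4 and 110 FPKM in Control cells and 101 and 99.2 in HAND1_OE cells. Here too the groups overlapped, and the difference was -0.063 (95% interval -0.42 to 0.29, limma adjusted p = 0.889). These intervals leave room for changes of up to about 0.5 in either direction for TIMP1, and the sign of both changes with the setting. TIMP2 (chromosome 17, 78852977 to 78925387), the partner of MMP14, was at 20.7 and 23.0 FPKM in Control, against 32.5 and 34.6 in HAND1_OE. It lay higher without overlap, but the difference of 0.60 was not called (standard error 0.15, limma adjusted p = 0.101). TIMP4 was not tested, at 0.0662 and 0 FPKM in Control cells and 0.586 and 0.642 in HAND1_OE cells. TIMP2 shares 10.03% of its exon bases with other genes, and TIMP4 shares 10.3% with SYN2 on the other strand.

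Proteases were then set against inhibitors. Of 41 protease genes 22 were tested, of which 4 were called higher, against 2.04% of all genes tested. Of 4 TIMP genes 3 were tested, of which 0 were called with limma. TIMP2 alone of them had an unadjusted limma p under 0.05, on the higher side, against 6.82% of all genes. With 3 genes, 0 calls do not set the TIMPs apart from all genes. The 22 proteases include ADAMTS14, ADAMTS15 and ADAMTS18, which passed the filter through their HAND1_OE libraries alone. The median difference was 0.50 over the 22 proteases and 0.0029 over the 3 TIMPs. With every gene above 0 in any library fitted, these medians were 0.18 and 0.30. Summed FPKM of the 41 proteases was 878 and 833 in Control and 1312 and 1427 in HAND1_OE. The summed FPKM of the 4 TIMPs was 363 and 338 in Control and 394 and 327 in HAND1_OE. The protease sum was thus higher in both HAND1_OE libraries by 1.601 times between means, while the TIMP sums overlapped. The ratio of summed TIMP to summed protease FPKM was 0.413 and 0.406 in Control and 0.300 and 0.229 in HAND1_OE, with means of 0.41 ± 0.00498 and 0.265 ± 0.0504 (SD, n = 2).

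MMP14 weighed most in these sums. It made up 49.5% and 53.0% of the protease FPKM in Control and 60.4% in both HAND1_OE libraries. With MMP14 left out, the ratio of TIMP to protease was 0.819 and 0.865 in Control and 0.758 and 0.578 in HAND1_OE. The lower ratio in HAND1_OE thus held without MMP14, with a gap between the nearest libraries that was smaller than the spread within HAND1_OE. The MMPs alone summed to 709 and 661 FPKM in Control and to 1069 and 1154 FPKM in HAND1_OE, and the ADAMTS genes to 168 and 172 and to 243 and 273 FPKM. No test was made of these sums and ratios.

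**Figure D4:**
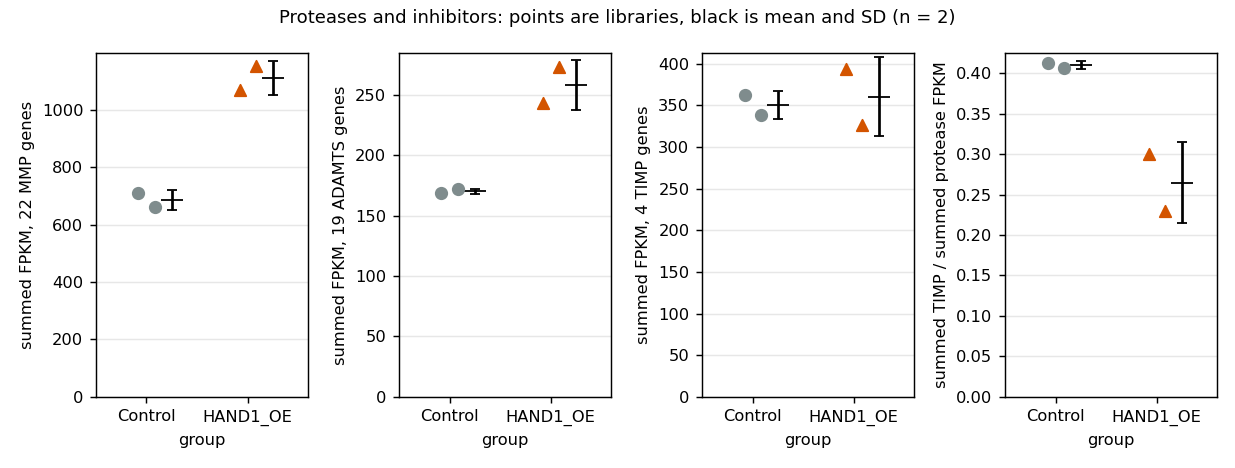
Summed FPKM of the 22 MMP, 19 ADAMTS and 4 TIMP genes, and the ratio of summed TIMP to summed protease FPKM, in each library (points), with the mean and SD of 2 libraries in black. MMP and ADAMTS sums are higher in both HAND1_OE libraries, TIMP sums overlap, and the ratio is near 0.41 in Control and at 0.300 and 0.229 in HAND1_OE.

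Single pairs of enzyme and inhibitor differed in direction. The ratio of MMP9 to TIMP1 was 0.409 and 0.297 in Control and 0.151 and 0.117 in HAND1_OE. The ratio of MMP14 to TIMP2 was 21.0 and 19.2 in Control and 24.4 and 24.9 in HAND1_OE. The ratio of MMP2 to TIMP2 was 5.03 and 3.50 in Control and 4.06 and 4.43 in HAND1_OE, where the groups overlapped.

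Genes that act with these enzymes were taken from a list of 59, of which 46 were tested, with a median difference of 0.14. With limma 6 were called higher and 3 lower, against 2.04% and 2.11% of all genes tested. Of the 10 tested genes on a list of other inhibitors 0 were called with limma. The list also held PCOLCE, PCOLCE2 and SERPINF1, which are not established protease inhibitors. An unadjusted limma p under 0.05 was reached by 2 that lay lower (A2M and SERPINF1) and 0 that lay higher. Over all genes tested these shares were 10.6% and 6.82%. RECK, which holds MMP14 and MMP9 in check at the membrane, was at 12.9 and 14.3 FPKM in Control, against 13.2 and 13.8 in HAND1_OE (difference -0.015, 95% interval -0.39 to 0.36). The protease trap A2M was lower in both HAND1_OE libraries, at 30.4 and 63.5 FPKM in Control, against 4.30 and 14.0 in HAND1_OE, but was not called (difference -2.33, limma adjusted p = 0.0976). BSG, an inducer of MMPs, was at 423 and 385 FPKM in Control cells and 421 and 333 in HAND1_OE cells, with overlap. FURIN, which activates MMP14, MMP11 and ADAMTS zymogens, was at 134 and 132 FPKM in Control, against 159 and 162 in HAND1_OE, a difference of 0.27 that was not called (limma adjusted p = 0.413). The plasminogen activator PLAT rose (difference 1.14, limma adjusted p = 0.0263) and the kallikrein KLK1 fell (difference -1.18, limma adjusted p = 0.0258).

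The ADAMTS-like proteins, which resemble ADAMTS enzymes without the protease and bind microfibrils, split in both directions. ADAMTSL3 rose from 0.0863 and 0.0496 FPKM in Control to 7.09 and 5.09 FPKM in HAND1_OE (difference 2.72, limma adjusted p = 0.0073). THSD4 (ADAMTSL6) rose from 0.696 and 0.333 to 4.75 and 6.16 FPKM (difference 2.09, limma adjusted p = 0.0139). ADAMTSL1 and ADAMTSL4 fell, by 1.35 and 1.29 on the log2(FPKM + 1) scale (limma adjusted p = 0.0338 and 0.034). ADAMTSL3 and THSD4 passed the filter through their HAND1_OE libraries alone and had to lie higher there. ADAMTSL1 passed it through its Control libraries alone and had to lie lower in HAND1_OE. BMP1, the procollagen C-proteinase that works on the other end of the molecule from ADAMTS2, rose from 15.7 and 15.4 to 31.6 and 35.4 FPKM (difference 1.06, limma adjusted p = 0.025). Of the microfibril genes, FBN1 rose (difference 1.55, limma adjusted p = 0.0199), whereas FBN2 was not called (difference -0.13, limma adjusted p = 0.876). Among 9 ADAM proteases 0 were called with limma, with 3 higher and 1 lower at an unadjusted p below 0.05 (6.82% and 10.6% of all genes). Of these 3, ADAM28 passed the filter through its HAND1_OE libraries alone and had to lie higher there. ADAM12 had the widest difference, at 1.69 (limma adjusted p = 0.113).

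Some markers of stroma and fibroblasts lay higher together with the called proteases. Of 9 such genes 8 were tested, and 4 were called higher with limma (PDGFRB, LUM, FBN1 and POSTN) and 0 lower. Over all genes tested 2.04% were called higher and 2.11% lower. At an unadjusted limma p below 0.05, 6 lay higher and 1 (COL1A2) lower, against 6.82% and 10.6% of all genes tested. POSTN passed the filter through its HAND1_OE libraries alone and had to lie higher there. The 9 genes summed to 441 and 362 FPKM in Control and to 594 and 538 FPKM in HAND1_OE. DCN was under 2 FPKM in each library, and COL1A1 and COL1A2 were lower in both HAND1_OE libraries without being called. Their part in the protease values was not tested. The 10 endothelial markers summed to 2225 and 1749 FPKM in Control and to 2161 and 1886 FPKM in HAND1_OE, with 0 called higher with limma, 1 (EMCN) higher at an unadjusted p below 0.05, and 1 (CLDN5) called lower. Of 5 trophoblast and amnion markers 3 were tested and TFAP2A was called higher.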

How the data were processed

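RNA of CD31+ cells at day 8 (2 Control, 2 HAND1_OE libraries, Illumina TruSeq kit, 4 libraries in all) was analysed from the table of values per gene that the authors deposited. Its unit, FPKM, is not named in the deposited table and was taken from the study and the values. The submitters' processing notes name BWA, Bowtie, RSEM and hg19, without versions, but 96.9% of the 58365 rows have the exact coordinates of GENCODE release 29 on GRCh38, which are given here counted from 1. Strand use in counting is not given in the sources used here. Rows for Y copies (45) and repeated gene IDs (91) were left out. Groups came from the sample titles.

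Values were tested as log2(FPKM + 1) with limma (version 3.58.1, under R 4.3.3) and a trend of the variance on the mean, for genes that reached 1 FPKM in 2 or more libraries, two-sided, with Benjamini-Hochberg adjustment over all 14622 genes tested. The differences understate the change of low genes. The code was tested on simulated data. Without counts, no counting interval can be given and depth is unknown. The genes, lists, roles and rules were chosen with earlier results of these data known. The rule named called genes, genes with a mean of at least 5 FPKM in either group, the TIMPs, and in the related list up to 8 called genes and 5 fixed ones, of which 1 is not reported here. Other genes, such as BMP1, A2M, ADAM12, FBN2 and the low proteases, were named after their values were seen. Promoters came from RefSeq (GRCh38.p14), matched by symbol. Alternatives were a pseudocount of 0.1, other filters, quantile and median-ratio scaling, no trend, a replicate block, a 2-fold threshold and each library left out.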

Additional observations from a re-analysis of the deposited data

How the results depend on the processing

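With every gene above 0 in any library tested, 0 of all 29860 genes were called higher or lower, the 45 included, and the median difference was 0.18 over proteases and 0.30 over TIMPs. The count called higher was 3 to 5 in the other scalings, filters, pseudocounts and thresholds, and 0 were called lower. With each library left out in turn it ranged from 2 to 4 for higher and from 0 to 1 for lower calls, 2 being without Control replicate 1 and 1 (MMP9) without HAND1_OE replicate 1. Over all genes tested, 271 were called higher with 1 FPKM required in every library and 355 after quantile normalization, against 299 in the main fit. With any library left out, fewer of all genes were called higher than in the main fit. The TIMP median was -0.031 after quantile normalization, 0.11 after median-ratio scaling, which moved the median of all genes to 0.018, and -0.075 to 0.22 with a library left out. After quantile normalization the mean ratio of TIMP to protease was 0.410 in Control and 0.260 in HAND1_OE. A scaling factor per library cancels in this ratio. Of 270 values for single genes under 11 alternatives, 242 kept their direction and side of the threshold. Signs changed for TIMP1 (-0.031 after quantile normalization, -0.12 without Control replicate 2 and -0.21 without HAND1_OE replicate 1), for TIMP3 (0.048 after median-ratio scaling, 0.0098 without Control replicate 2) and with a library left out for ADAMTS9 (-0.0698), ADAMTS19 (0.33) and MMP25 (-0.0087 and -0.042). Over the libraries left out these ranges were -0.21 to 0.22 for TIMP1, -0.14 to 0.0098 for TIMP3, -0.07 to 0.43 for ADAMTS9, -0.85 to 0.33 for ADAMTS19 and -0.042 to 0.15 for MMP25. The cause of these changes was not tested.

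The libraries share replicate numbers only, and their deviations from the group means correlated by 0.38 between groups over the genes tested. With the number as a replicate block 8 genes were called higher and 2 lower, among 597 and 712 of all genes. Besides the 4 called without it, these were ADAMTS1 (limma adjusted p = 0.0173), ADAMTS13 (0.0198), ADAMTS18 (0.0368) and the inhibitor TIMP2 (0.0333) on the higher side, and MMP9 (0.00964) and ADAMTS10 (0.0368) on the lower side.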
